A study of Mus musculus with 67 samples.

Results

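The 9 genes described here encode proteins of the lysosome and of related cytolytic granules: the membrane proteins Lamp1, Lamp2 and Cd63, the cathepsins Ctsb, Ctsd, Ctsl, Ctss and Ctsw, and the transcription factor Tfeb. They were taken by name, as a fixed list, out of the 24519 genes measured, and their levels in T cells of mouse hypothalamus and of the remaining brain are given by cell type, tissue, strain and diet. All 9 were present among the measured genes.

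Lysosomes are the acidic organelles in which cells break down proteins, lipids and membranes delivered by endocytosis and autophagy. Lamp1 and Lamp2 are heavily glycosylated proteins that make up much of the lysosomal membrane, and Cd63 is a tetraspanin of late endosomes, lysosomes and secretory granules. Cathepsins are lysosomal proteases: Ctsd is an aspartic protease, whereas Ctsb, Ctsl, Ctss and Ctsw belong to the cysteine proteases. Ctss is best known for trimming the invariant chain of MHC class II in antigen-presenting cells, is abundant in microglia and macrophages, and Ctsw (lymphopain) is known from cytotoxic T cells and natural killer cells. Tfeb is a helix-loop-helix factor that induces many lysosomal and autophagy genes through the palindrome CACGTG and its extended forms. In cytotoxic lymphocytes, Lamp1 and Cd63 also mark the granules that release granzymes and perforin.

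In the second experiment, 59 RNA-seq libraries were made from T cells sorted out of hypothalamus or out of the rest brain, the brain without hypothalamus. The mice carried a Foxp3GFP reporter on a Balb/c or C57Bl/6J background and received a standard diet (SD) or a high-fat, high-sugar diet (HFHS) begun at 6 weeks of age. Per the methods, Balb/c mice were female and C57Bl/6J mice male, so that strain and sex cannot be told apart. Conventional T cells (Tconv) were gated as CD4+CD25-Foxp3GFP- cells with high CD44 and low CD62L, and regulatory T cells (Tregs) as CD4+CD25+Foxp3GFP+ cells. The study's cytometric gate for CD4+ T cells of the brain left out cells that stained for CD8a, B220, CD11b, CD11c, CD14 or F4/80, a panel meant to remove CD8 T cells, B cells and myeloid cells, microglia included. There were 29 Tconv and 30 Treg libraries in 16 groups of 2 to 4, each library a pool of cells from 5 mice and named by a pool label such as 32_36. The 16 groups were every combination of tissue, cell type, strain and diet, with no other allele or agent stated. A pilot held 8 hypothalamic libraries with 1 per group. Of these, 4 came from female Foxp3GFP Balb/c mice pooled from 9 animals after 16 weeks of SD or HFHS, sorted as CD4+CD25-CD44low+int T cells or as Tregs. The other 4 came from female ob/ob mice, which lack leptin, or wild-type C57Bl/6J mice, pooled from 7 animals and sorted, per the methods, as CD25- or CD25++ CD4+ T cells, which the labels call CD4+ T cells and CD25high or CD25hi Tregs. The labels call the CD44low+int cells CD44- naive.

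Because Tfeb acts through CACGTG, the reference promoters of 7 members were searched for this motif, and every match is printed here. Those of Ctsb and Ctsw were not searched. Promoters were the 250 bases before to 50 bases after each RefSeq start on GRCm38.p6. The motif is its own reverse complement, so that a match counts on both strands. The windows below run 5′ to 3′ on the strand of the gene, with the motif in capitals.
Ctsd, chr7:142387908-142387937, minus strand: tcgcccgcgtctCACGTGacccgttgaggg
Ctsd, chr7:142388055-142388077, minus strand: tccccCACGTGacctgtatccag
Lamp1, chr8:13159088-13159117, plus strand: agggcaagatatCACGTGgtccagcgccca
Lamp1, chr8:13159104-13159133, plus strand: tggtccagcgccCACGTGatgccgactggc
Lamp1, chr8:13159121-13159150, plus strand: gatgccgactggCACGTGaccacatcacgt
Lamp1, chr8:13159134-13159163, plus strand: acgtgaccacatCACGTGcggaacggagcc
Ctsl, chr13:64370739-64370768, minus strand: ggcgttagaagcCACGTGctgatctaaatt
The Lamp1 promoter held 4 matches, which began 61, 45, 28 and 15 bases before the start. The Ctsd promoter held 2, at 98 and 245 bases before the start, and that of Ctsl held 1, at 236. The starts used for Ctsl and Cd63 lie inside the gene spans given below, which begin further upstream, so that the Ctsl match falls within the Ctsl span. For Tfeb, the start of its span and further starts inside it were searched. No match lay in the windows of Ctss, Cd63, Lamp2 or Tfeb, which says only that these letters are absent from them. Among all 32851 promoters, 7.15% held CACGTG. Of 69 promoters of the other lysosomal lists below, without the members, the cytotoxic granule genes and the tetraspanins, 24.6% did. The longer palindrome TCACGTGA, which contains CACGTG, was in 0.974% of all promoters and in 14.5% of these 69. Of the members, Ctsd held it, in the match 98 bases before the start. A match describes the sequence and is neither a binding site shown here nor a cause of any level. The members lie on different chromosomes: Lamp1 at chr8:13159161-13175338, Lamp2 at chrX:38399647-38456460, Cd63 at chr10:128896231-128912822, Ctsb at chr14:63122462-63145923, Ctsd at chr7:142375910-142387827, Ctsl at chr13:64361890-64370772, Ctss at chr3:95526786-95556405, Ctsw at chr19:5465043-5468628 and Tfeb at chr17:47737037-47792416.

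Library totals ranged from 1724154 to 38482282 estimated reads, and levels are given as CPM, the reads of a gene scaled to a common library total. Genes with more than 3 reads numbered 9371 to 14182 in Tconv, 5949 to 10256 in rest-brain Tregs and 2366 to 10458 in hypothalamic Tregs, whose median was 4749. A level of 0 in a hypothalamic Treg library is therefore a weaker statement than in the other libraries. The sum of 6 T cell markers was 5676 to 9140 CPM in all libraries outside hypothalamic Tregs. Treg markers summed to 1628 to 3231 CPM in rest-brain Tregs and to at most 305 CPM in Tconv. In 2 hypothalamic Treg libraries, the sum of 9 microglial markers exceeded 1000 CPM. The Balb/c SD library 32_36 held 12027 CPM of microglial markers beside 4134 CPM of T cell markers and 3211 CPM of the 4 Treg markers, of which Foxp3 was at 0.0977 CPM. The C57Bl/6J SD library 11_15 held 1029 CPM of microglial, 2490 CPM of macrophage and 4304 CPM of endothelial markers, against 183 CPM of T cell markers. For some of the results that include these libraries, values without them are also given.

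On a scale corrected for transcript length (TPM), Ctsw was the most abundant member in Tconv and Ctss in Tregs. Median TPM in rest-brain Tconv was 551 for Ctsw, 369 for Ctsd, 314 for Ctss and 99.7 for Ctsb. In hypothalamic Tconv the medians were 859, 410, 249 and 169 for the same genes. Ctsw ranked first in 13 of 13 rest-brain and 15 of 16 hypothalamic Tconv libraries. In rest-brain Tregs, Ctss had a median of 542 TPM and ranked first in 13 of 14 libraries, followed by Ctsd (228), Ctsb (228) and Ctsw (163), of which Ctsd and Ctsb do not differ beyond their spread. In hypothalamic Tregs, Ctss ranked first in 10 of 16 libraries. Lamp1 and Lamp2 were at lower median TPM than these 4 cathepsins in every cell type and tissue (Lamp1, 55.0 to 93.4; Lamp2, 5.53 to 62.3). Ctsl, Tfeb and Cd63 were the lowest members. Their median TPM was at most 3.23 for Ctsl and 6.93 for Tfeb, and that of Cd63 was 0 throughout.

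The reads of a gene could fall on several RefSeq transcript names, and which of them carried a member differed. For Ctss, 92.8% of reads in the 59 libraries lay on 1 of 2 names, and for Tfeb 93.5% lay on 1 of 3. Lamp2, whose splice forms differ in the tail that faces the cytosol, was split into 55.9%, 43.2% and 0.94% over 3 names. All Cd63 reads were on 1 of its 3 names.

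**Figure D1:**
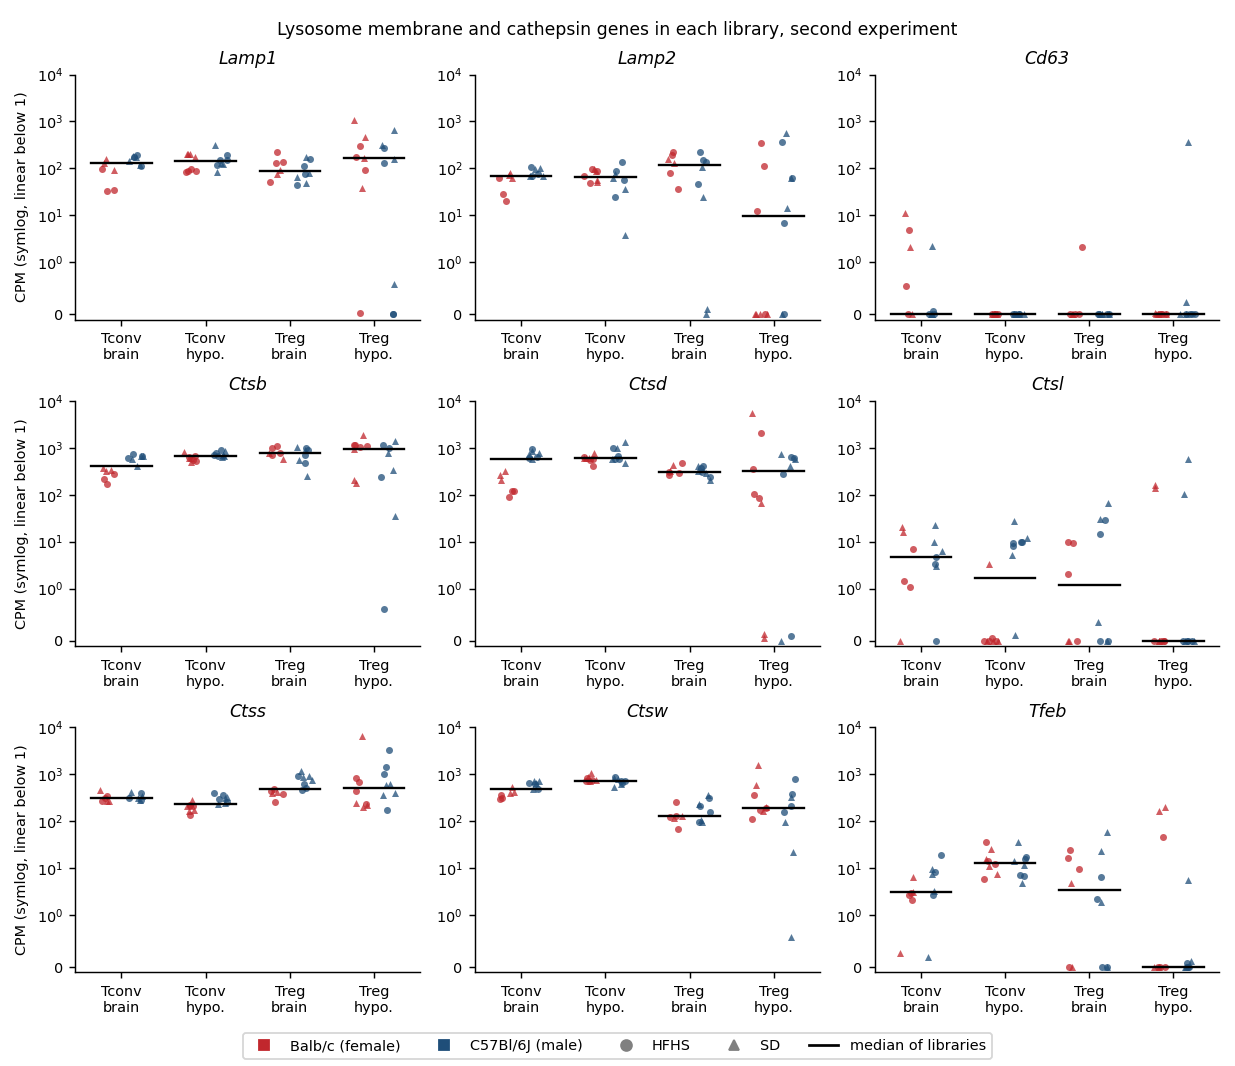
Level of each member (CPM, symmetric log axis that is linear below 1) in each of the 59 libraries by cell type and tissue, with strain as colour, diet as symbol and the median of the libraries as a bar. The 4 abundant cathepsins were seen in nearly all Tconv and rest-brain Treg libraries, whereas in hypothalamic Tregs Lamp1, Ctsb, Ctsd and Ctsw spread from under 1 to over 1000 CPM, and Ctss from 176 to 6666 CPM.

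The first comparison asked how Tregs differ from Tconv. In the hypothalamus, Ctss was higher in Tregs, and Ctsw and Lamp2 were lower. These are bulk libraries, so that fewer cells of a type and less RNA per cell cannot be told apart, and since each library is a pool, p-values measure the spread between pools. Of 8 members tested, 3 passed an adjusted p of 0.05 (edgeR quasi-likelihood test, Benjamini-Hochberg adjustment over all genes), against 33.4% of all genes tested, of which 0.754% were higher in Tregs and 32.7% lower (40.3% at an unadjusted p under 0.05). The median of all genes was -1.49 on the log2 scale, and differences are also given relative to it. Cd63 failed the filter on low counts and was not tested.

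Ctss, the protease of the invariant chain, was at 133, 237 and 400 CPM (lowest, median and highest of 16) in hypothalamic Tconv and at 176, 515 and 6666 CPM in the 16 Treg libraries. The ranges overlapped, and the highest Treg library was Balb/c SD 32_36, the one rich in microglial markers. The log2 difference was 1.94 (SE 0.41, adjusted p = 0.000609, edgeR), or 3.43 relative to the median gene. Without library 32_36 it was 1.14 (adjusted p = 0.0044), and without both libraries that stand apart it was 1.16. Ctss was also at 3328 CPM in the C57Bl/6J HFHS Treg library 06_10, whose microglial marker sum was 0. That library held only 2550 genes above 3 reads, so that a marker sum of 0 is a weak statement there. The part of microglial RNA in the Ctss difference was not tested.

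Ctsw, the lymphocyte cathepsin, was at 539, 738 and 1043 CPM in hypothalamic Tconv and at 0.580, 193 and 1573 CPM in Tregs. Most Treg libraries lay below all Tconv libraries, but 3 did not, among them 32_36 at 1573 CPM. The log2 difference was -1.42 (SE 0.44, adjusted p = 0.011, edgeR), which was 0.066 relative to the median gene: Ctsw was lower in Tregs to the same extent as the median of all genes. Markers of cells known for Ctsw were lower in the same contrast, namely Cd8a (-11.6) and Cd8b1 (-6.43) of CD8 T cells and Klrb1c (-8.94) and Klre1 (-9.76) of natural killer cells. The CD8 markers summed to 8.69 to 619 CPM in hypothalamic Tconv and 0 to 179 CPM in Tregs, and the 3 natural killer markers to 0 to 75.3 CPM and at most 0.119 CPM, with every one of them at 3 reads or fewer in all 16 Treg libraries. Their part in the Ctsw difference was not tested. Lamp2 was at 3.79, 65.2 and 134 CPM in Tconv and at 0, 9.59 and 578 CPM in Tregs, where 7 of 16 libraries held 3 reads or fewer, all 4 Balb/c SD libraries among them. Its log2 difference of -2.52 (SE 0.94, adjusted p = 0.038) depends on how these empty groups are fitted and is no measure of size. The call was lost without any one of 4 libraries: Tconv C57Bl/6J HFHS 06_10 (-2.40, adjusted p = 0.0547), Tconv C57Bl/6J SD 11_15 (-2.41, adjusted p = 0.0542), Treg C57Bl/6J SD 67_71 (-2.45, adjusted p = 0.0511) and Treg Balb/c SD 06_10 (-2.51, adjusted p = 0.0506). It was also lost under a block on the pool label (-4.01, adjusted p = 0.185). Without the 2 libraries that stand apart the call held, at -3.25 (adjusted p = 0.013).

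The other members did not pass the test in the hypothalamus. Lamp1 was at 83.8, 142 and 309 CPM in Tconv and at 0, 162 and 1074 in Tregs, with 4 Treg libraries at 3 reads or fewer, and the log2 difference was 0.53 (95% interval -1.02 to 2.08). Ctsb was at 500, 672 and 881 CPM in Tconv and 0.601, 954 and 1853 in Tregs (0.21, -0.68 to 1.09), and Ctsd was at 417, 611 and 1310 CPM in Tconv and 0, 321 and 5499 in Tregs (-0.08, -1.62 to 1.46). The intervals were wide because Tregs held libraries with almost no reads of a gene beside libraries at over 1000 CPM. Without the 2 libraries that stand apart, the median and highest Treg values were 144 and 455 CPM for Lamp1 and 859 and 1160 CPM for Ctsb. For Ctsd they were 192 and 2109 CPM. Ctsl was at 3 reads or fewer in 8 of 16 Tconv and 12 of 16 Treg libraries. Tfeb was detected above 3 reads in all 16 Tconv libraries (4.85, 13.2 and 36.5 CPM) but in 4 of 16 Treg libraries, at up to 201 CPM. Its log2 difference was -2.59 (SE 1.19, adjusted p = 0.093), and the call was gained without Treg Balb/c HFHS 15_21 (-5.24, adjusted p = 0.0017) or Treg C57Bl/6J SD 67_71 (-3.78, adjusted p = 0.022). It was also called by DESeq2 (-2.66, adjusted p = 0.030), by limma-voom (-4.94, adjusted p = 0.0019) and under a block on the pool label (-7.91, adjusted p = 0.0034). Cd63 was 0 in all 16 Tconv libraries and at 3 reads or fewer in 15 of 16 Treg libraries. The remaining library, C57Bl/6J SD 11_15 with its endothelial and macrophage markers, held 362 CPM.

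**Figure D2:**
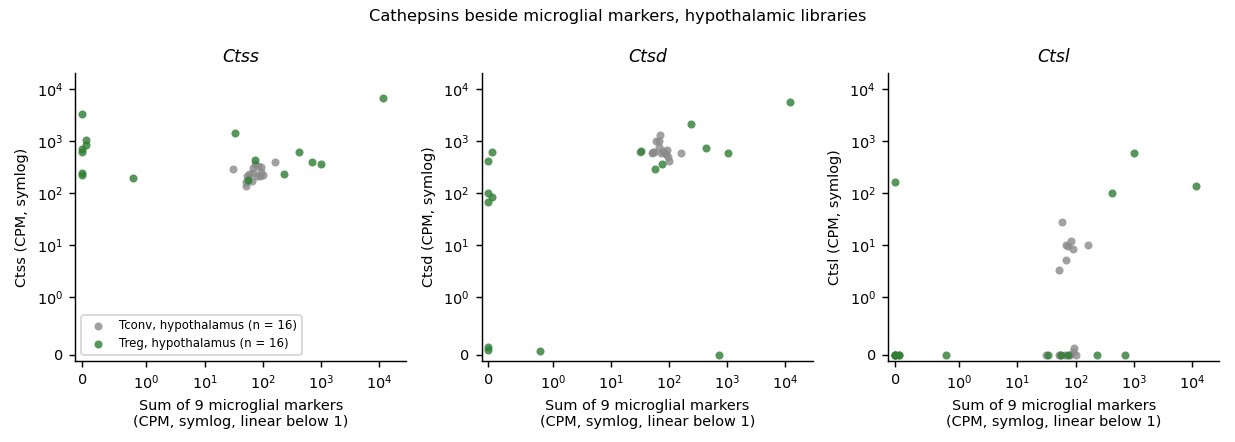
Level of Ctss, Ctsd and Ctsl (CPM, symmetric log axis) against the summed level of 9 microglial markers (CPM, symmetric log axis) in the 16 Tconv (grey) and 16 Treg (green) libraries of the hypothalamus. The library with 12027 CPM of microglial markers held the highest Ctss (6666 CPM) and Ctsd (5499 CPM) of the plot, and Treg libraries with almost no microglial markers spread from 196 to 3328 CPM of Ctss.

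In the rest brain, libraries were more alike, and 3 of 9 members passed the test, against 19.9% of all genes (4.69% higher and 15.2% lower in Tregs, with a median gene at -0.42). Ctsw was lower in Tregs, and Ctss and Ctsb were higher. Ctsw was at 301, 495 and 731 CPM in 13 Tconv libraries and at 67.9, 130 and 355 CPM in 14 Treg libraries. Only the top of the Treg range reached the bottom of the Tconv range. The log2 difference was -1.71 (SE 0.22, adjusted p = 4.5e-06, edgeR), or -1.28 relative to the median gene. Both CD8 markers (Cd8a -8.28, Cd8b1 -2.78) and the 3 natural killer markers (Ncr1 -11.2, Klrb1c -10.8 and Klre1 -10.5) were also lower in Tregs. The CD8 sum was 1.94 to 736 CPM in rest-brain Tconv and 0.0598 to 78.5 CPM in Tregs, and the natural killer sum 17.1 to 119 CPM and at most 0.0800 CPM, and their part in the Ctsw difference was not tested. Ctss was at 267, 315 and 465 CPM in Tconv and 251, 493 and 1172 CPM in Tregs, a log2 difference of 0.64 (SE 0.13, adjusted p = 0.0012). Ctsb, a cysteine protease found in most cells, was at 169, 415 and 746 CPM in Tconv and 249, 775 and 1079 CPM in Tregs, a log2 difference of 0.74 (SE 0.17, adjusted p = 0.0029), and this call was lost under a block on the pool label (0.61, adjusted p = 0.091). Both ranges overlapped between the cell types. Microglial markers summed to 52.1 to 515 CPM in rest-brain Tconv and 0.220 to 271 CPM in Tregs, and 4 of 9 microglial markers were lower in Tregs and 0 higher. Gpr34 was at 45.8 to 129 CPM in Tconv and 0.0598 to 176 CPM in Tregs, and P2ry12 at up to 265 and 64.8 CPM. The part of microglial RNA in these values was not tested.

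Ctsd was at 90.1, 580 and 940 CPM in rest-brain Tconv and 207, 313 and 481 CPM in Tregs, with a log2 difference of -0.18 (95% interval -0.44 to 0.08). The Tconv spread was wide because the strains differed, as described below. Lamp1 was at 33.6, 128 and 194 CPM in Tconv and 45.1, 86.3 and 223 in Tregs (-0.30, -0.84 to 0.23). Lamp2 was at 19.9, 69.7 and 107 CPM in Tconv and 0, 118 and 228 in Tregs (0.42, -0.78 to 1.61), and Ctsl and Tfeb did not pass either. Cd63 was above 3 reads in 5 of 13 Tconv libraries, at 0.539 to 11.3 CPM, and in 1 of 14 Treg libraries, at 2.10 CPM. Its adjusted p was 0.054, and the call was gained without that Treg library, Balb/c HFHS 15_21 (log2 difference -6.50, adjusted p = 0.021), and without the filter on low counts (-4.93, adjusted p = 0.039). The Tconv library with the highest Cd63 (Balb/c SD 42_46, 11.3 CPM) also held the highest microglial sum of its group, 515 CPM, and the part of those cells in its Cd63 was not tested.

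Whether the Treg difference itself differed between tissues was asked of all 59 libraries. By edgeR, 0 members passed, against 11.2% of all genes (21.1% at an unadjusted p under 0.05), while DESeq2 called 1 and limma-voom 4. Ctss came closest, at 1.37 (adjusted p = 0.058), but without the 2 libraries that stand apart the value was 0.35 (adjusted p = 0.75). Lamp2 was at -3.01 (adjusted p = 0.077), and passed without those libraries (-3.87, adjusted p = 0.015).

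Among 9 lists of 88 other lysosome and granule genes, the cytotoxic granule list had the largest share called in hypothalamic Tregs against Tconv. In the hypothalamus, 5 of its 8 tested genes were lower in Tregs and 1 higher, against 32.7% of all genes lower and 0.754% higher. The granzymes and perforin were among those lower (Gzmk -13.0, Prf1 -10.7 and Gzmb -9.98 on the log2 scale), with the proteoglycan Srgn higher (0.89). The CD8 and natural killer markers Cd8a, Cd8b1, Klrb1c and Klre1 were lower in the same contrast, as given above, and their part in the granule genes was not tested. In the rest brain, 3 were lower, namely Gzmk (-12.6), Gzma (-8.75) and Nkg7 (-4.45), and Unc13d, which primes granules for release, was higher (1.19). There, 15.2% of all genes were lower and 4.69% higher. Of the other cathepsins, 1 of 8 was higher in hypothalamic Tregs, the asparaginyl endopeptidase Lgmn, which is also known from myeloid cells, and 2 of 9 in rest-brain Tregs, Ctsz (1.38) and Ctsa (0.62). No other cathepsin was lower by this test in either tissue, and the list's median was 0.25 and 0.62 against medians of all genes of -1.49 and -0.42. The cystatin Cst3, an extracellular inhibitor of cysteine cathepsins, was higher in hypothalamic Tregs (2.62), and Cstb, a cytosolic inhibitor, was lower in rest-brain Tregs (-0.75). Without the 2 libraries that stand apart, Cst3, which microglia express strongly, was at 0.98 (adjusted p = 0.040, edgeR) and Lgmn passed as before (adjusted p = 0.0014), and 5 cytotoxic granule genes were again lower and 1 higher. The part of microglial RNA in Cst3 and Lgmn was not tested.

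Among other lysosomal membrane proteins in the hypothalamus, 4 of 13 were lower in Tregs and 0 higher, where 32.7% of all genes were lower and 0.754% higher, with the cystine carrier Ctns at -5.17 and the calcium channel Mcoln1 at -4.74, and the list's median was -1.92 against -1.49 for all genes. In the rest brain, 3 of 14 were higher and 0 lower, namely Laptm4b (7.38), Laptm4a (1.06) and Laptm5 (0.70), where 4.69% of all genes were higher and 15.2% lower. Of the 22 lysosomal hydrolases, 5 were lower in hypothalamic Tregs, with Galc, the galactosylceramidase, at -9.37. In the rest brain, Neu1 (1.23) and Psap (0.95) were higher, and 1 hydrolase, Arsb, was lower (-5.17). Of the 16 subunits of the V-ATPase, the pump that acidifies lysosomes, 1 was lower in hypothalamic Tregs and 3 in rest-brain Tregs, and 0 were higher. Of 6 other tetraspanins, the family of Cd63, Cd81 was higher in Tregs of the hypothalamus (5.36) and of the rest brain (4.70), and 0 were lower, although Cd151 passed as lower in the hypothalamus without the 2 libraries that stand apart (-4.22, adjusted p = 0.014, edgeR). Of the transcription factors related to Tfeb, Tfe3 (-2.60) and Mitf (-2.28) did not pass in the hypothalamus but did without the 2 libraries that stand apart (-3.97, adjusted p = 0.031, and -4.61, adjusted p = 0.011, edgeR), and 0 passed in the rest brain. Without the 2 libraries that stand apart, 6 of the 13 membrane proteins, 8 hydrolases and 2 V-ATPase subunits were lower in hypothalamic Tregs, where 40.4% of all genes were. Whether these lists, as sets, differ between the tissues was not tested, and calls of their genes in the cell type by tissue contrast are not given here.

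**Figure D3:**
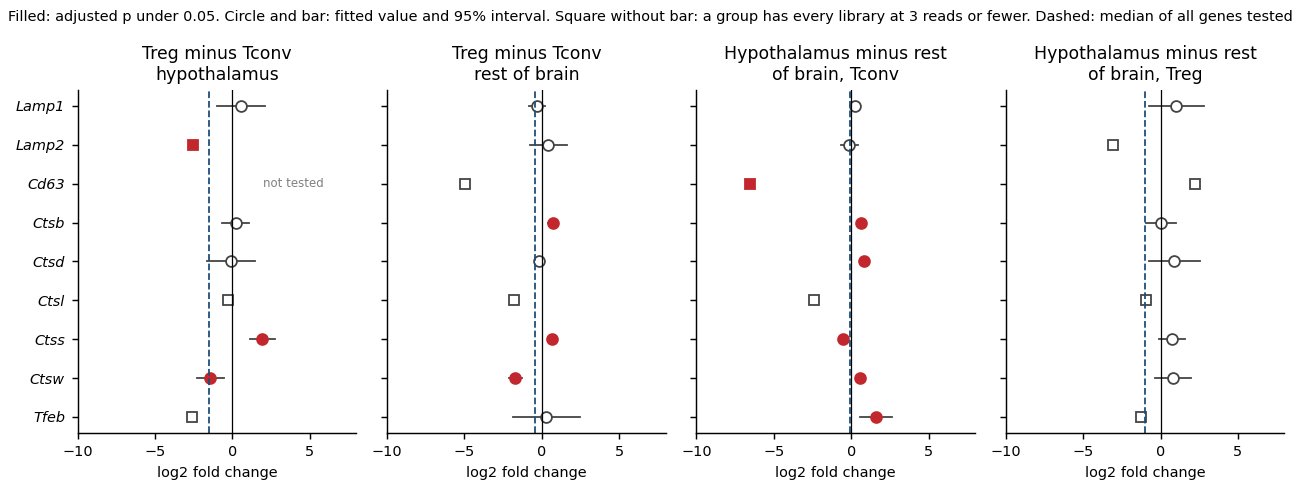
Fitted log2 fold change of each member (circle, with its 95% interval) for Tregs against Tconv in each tissue and for hypothalamus against rest brain in each cell type. Filled symbols passed an adjusted p of 0.05, squares mark members with a group of libraries all at 3 reads or fewer, and the dashed line is the median of all genes. Ctss lay to the right of that line in both Treg comparisons, and in Tconv 6 of 9 members were called between tissues.

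The second comparison asked how T cells of the hypothalamus differ from those of the rest brain. In Tconv, Ctsd, Ctsb, Ctsw and Tfeb were higher in the hypothalamus, and Ctss and Cd63 were lower. These 6 of 9 members compare with 22.7% of all genes (8.21% higher and 14.5% lower). Ctsd was at 417, 611 and 1310 CPM in hypothalamic and 90.1, 580 and 940 CPM in rest-brain Tconv, a log2 difference of 0.84 (SE 0.12, adjusted p = 1.3e-05, edgeR). Ctsb was at 500, 672 and 881 CPM against 169, 415 and 746 CPM, a difference of 0.60 (SE 0.088, adjusted p = 2.4e-05), and Ctsw at 539, 738 and 1043 CPM against 301, 495 and 731 CPM, a difference of 0.54 (SE 0.088, adjusted p = 8.9e-05). For all 3 the ranges overlapped over both strains. Ctss was lower by comparison, at -0.51 (SE 0.11, adjusted p = 0.0016), with 133, 237 and 400 CPM in the hypothalamus against 267, 315 and 465 CPM in the rest brain.

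Tfeb was at 4.85, 13.2 and 36.5 CPM in hypothalamic Tconv and at 0.189, 3.06 and 18.8 CPM in rest-brain Tconv, a log2 difference of 1.60 (SE 0.53, adjusted p = 0.029). The ranges overlapped. This call was lost without any one of 4 libraries: rest-brain C57Bl/6J HFHS 38_42 (1.49, adjusted p = 0.0577) or 77_80 (1.57, adjusted p = 0.0511), hypothalamic C57Bl/6J SD 11_15 (1.45, adjusted p = 0.0523) or hypothalamic Balb/c HFHS 15_21 (1.43, adjusted p = 0.0581). It was also lost under the block on the pool label (1.92, adjusted p = 0.112). Cd63 was 0 in all 16 hypothalamic libraries and above 3 reads in 5 of 13 rest-brain libraries (fitted value -6.51, adjusted p = 0.0045). With 5 of 8 groups at 3 reads or fewer, that value depends on how zeros are handled, and the call was lost without rest-brain C57Bl/6J SD 01_05 (-4.92) or C57Bl/6J HFHS 77_80 (-6.05), by DESeq2 (adjusted p = 0.097) and under the block (adjusted p = 0.305). Ctsl was at 0, 1.71 and 27.8 CPM in hypothalamic and 0, 4.78 and 23.0 CPM in rest-brain Tconv (fitted value -2.42, adjusted p = 0.060). It passed without rest-brain C57Bl/6J HFHS 77_80 (-2.57, adjusted p = 0.0439) or Balb/c SD 37_41 (-2.57, adjusted p = 0.0377), or without hypothalamic C57Bl/6J SD 67_71 (-2.67, adjusted p = 0.04998) or Balb/c SD 42_46 (-4.15, adjusted p = 0.0022). DESeq2 called it as well (-2.50, adjusted p = 0.0246), as did edgeR without the filter (-2.39, adjusted p = 0.0345). Lamp1 (0.22, 95% interval -0.10 to 0.55) and Lamp2 (-0.12, -0.66 to 0.41) did not pass.

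Markers of other cells also differed between these libraries. The microglial sum was 31.4 to 161 CPM in hypothalamic and 52.1 to 515 CPM in rest-brain Tconv, and 3 of 8 tested microglial markers were lower in the hypothalamus, among them P2ry12 (-9.70), at 3 reads or fewer in all 16 hypothalamic Tconv libraries. Macrophage markers were at most 0.112 CPM in hypothalamic and 21.6 CPM in rest-brain Tconv. Their part in the tissue differences of the members was not tested. The CD8 markers Cd8a and Cd8b1 summed to 1.94 to 736 CPM in rest-brain and 8.69 to 619 CPM in hypothalamic Tconv, although the gate was for CD4. In the 3 Tconv libraries with under 20 CPM of CD8 markers, Ctsw was at 495, 539 and 842 CPM, and in the other 26 it was at 301, 706 and 1043 CPM (lowest, median and highest). All 3 were of C57Bl/6J mice, and they held 17.1, 61.8 and 38.2 CPM of natural killer markers. The other 26 included every Balb/c Tconv library. The part of CD8 and natural killer cells in Ctsw was not tested.

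Of the other lists, the cathepsins split in hypothalamic against rest-brain Tconv: Ctsa (0.53) was higher, and Lgmn (-6.93) and Ctsh (-5.28), both known from myeloid cells, were lower, out of 8 tested. Of 8 cytotoxic granule genes, Gzmb (1.70) and Unc13d (1.09) were higher, and Srgn (-0.50), Gzmk (-0.48) and Nkg7 (-0.31) lower. Of 4 inhibitors, Cst3 (-0.95) and Cstb (-0.41) were lower. Laptm5, a lysosomal membrane protein of blood cells, was the 1 of 13 that was higher (0.75), and none of that list was lower. The hydrolases Tpp1 (0.77) and Neu1 (0.69) were higher, out of 22 tested with none lower. The mannose 6-phosphate receptor M6pr, which carries newly made hydrolases to the lysosome, was higher (0.61), and Sort1 was lower (-6.17). The V-ATPase subunits moved both ways, with 2 of 16 higher (Atp6v0a2 0.82 and Atp6ap1 0.50) and 4 lower (Atp6v0e -0.53 and Atp6v1f -0.45 among them).

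In Tregs, 0 members passed by edgeR between hypothalamus and rest brain, against 11.4% of all genes, of which 0.0318% were higher (23.7% at an unadjusted p under 0.05), and the median gene was at -1.004. DESeq2 and limma-voom called 1 each, Lamp2. Lamp2 was at 0, 9.59 and 578 CPM in hypothalamic and 0, 118 and 228 CPM in rest-brain Tregs, with a fitted value of -3.07 (adjusted p = 0.072). The call was gained without the 2 libraries that stand apart (-3.78, adjusted p = 0.037), without C57Bl/6J SD 11_15 alone (-3.77, adjusted p = 0.034) and without C57Bl/6J HFHS 33_37 (-3.65, adjusted p = 0.0486). The abundant cathepsins did not pass, with values of 0.90 for Ctsd, 0.77 for Ctsw, 0.73 for Ctss and 0.02 for Ctsb.

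The tissue difference in Tconv was then asked of each strain, a contrast added after the data were seen. It differed between strains for 5 members, against 11.1% of all genes (5.51% larger and 5.57% smaller in Balb/c, with a median gene at 0.109). Ctsd had the largest difference among the 4 of them with reads in every group. In rest-brain Tconv of Balb/c mice, Ctsd was at 90.1, 123 and 122 CPM under HFHS and at 258, 210 and 320 CPM under SD. In hypothalamic Tconv of Balb/c mice, it was at 417, 584, 637 and 553 CPM under HFHS and at 759, 616, 609 and 613 CPM under SD. All 8 hypothalamic libraries were above all 6 rest-brain libraries.

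In C57Bl/6J mice, the tissues overlapped for Ctsd. Rest-brain Tconv was at 597, 651 and 940 CPM under HFHS and 870, 580, 727 and 765 CPM under SD, and hypothalamic Tconv at 1012, 584, 682 and 593 CPM under HFHS and 485, 1004, 592 and 1310 CPM under SD. The strain difference of the tissue difference was 1.46 (SE 0.23, adjusted p = 0.00017, edgeR). Leaving out any one library kept the call, but under a block on the pool label it was lost (1.21, adjusted p = 0.109), as were those of the other 4 members. The block left 33 genes called in all.

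Ctsb followed the same order. Rest-brain Tconv of Balb/c mice was at 169, 283 and 216 CPM under HFHS and 334, 316 and 376 CPM under SD, below every hypothalamic library of that strain (512, 550, 653 and 669 under HFHS, and 829, 500, 618 and 600 under SD). In C57Bl/6J mice, rest-brain libraries (661, 598 and 746 under HFHS, and 682, 568, 677 and 415 under SD) overlapped with hypothalamic ones (634 to 881 CPM). The difference of differences was 0.65 (SE 0.18, adjusted p = 0.013). For Ctsw, Balb/c rest-brain libraries at 301 to 525 CPM likewise did not overlap with hypothalamic ones at 706 to 1043 CPM, whereas C57Bl/6J libraries were at 478 to 731 and 539 to 863 CPM. In Balb/c mice, 3 of 9 members did not overlap between tissues, all 3 higher in the hypothalamus, and among 10975 genes 10.2% did not overlap.

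The Ctsw difference of differences was 0.58 (SE 0.18, adjusted p = 0.028). It was lost without any one of 6 libraries: rest-brain C57Bl/6J HFHS 38_42 (0.52, adjusted p = 0.063), C57Bl/6J SD 11_15 (0.54, adjusted p = 0.0527), Balb/c SD 37_41 (0.57, adjusted p = 0.0525), Balb/c SD 32_36 (0.54, adjusted p = 0.066) and Balb/c HFHS 47_25 (0.56, adjusted p = 0.0526), or hypothalamic Balb/c SD 42_46 (0.52, adjusted p = 0.0520). Ctss went the other way, at -0.80 (SE 0.23, adjusted p = 0.022), which was lost without rest-brain C57Bl/6J HFHS 33_37 (-0.73, adjusted p = 0.0522) or Balb/c SD 42_46 (-0.66, adjusted p = 0.061), the library with 515 CPM of microglial markers. In hypothalamic Tconv, Ctss was at 133 to 282 CPM in Balb/c and 234 to 400 CPM in C57Bl/6J mice. Ctsl, a cysteine protease that also processes proteins outside the lysosome, was nearly absent from hypothalamic Tconv of Balb/c mice. It was at 0, 0, 0 and 0.051 CPM under HFHS and 0, 0, 3.31 and 0 CPM under SD, against 9.81, 10.04, 8.197 and 9.47 CPM under HFHS and 0.114, 27.8, 11.9 and 5.18 CPM under SD in C57Bl/6J mice. Its fitted value of -6.79 (adjusted p = 0.023) rests on a group at 3 reads or fewer, and the call was lost without rest-brain C57Bl/6J HFHS 33_37 (-6.85, adjusted p = 0.0546) or Balb/c HFHS 47_25 (-6.13, adjusted p = 0.0504).

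**Figure D4:**
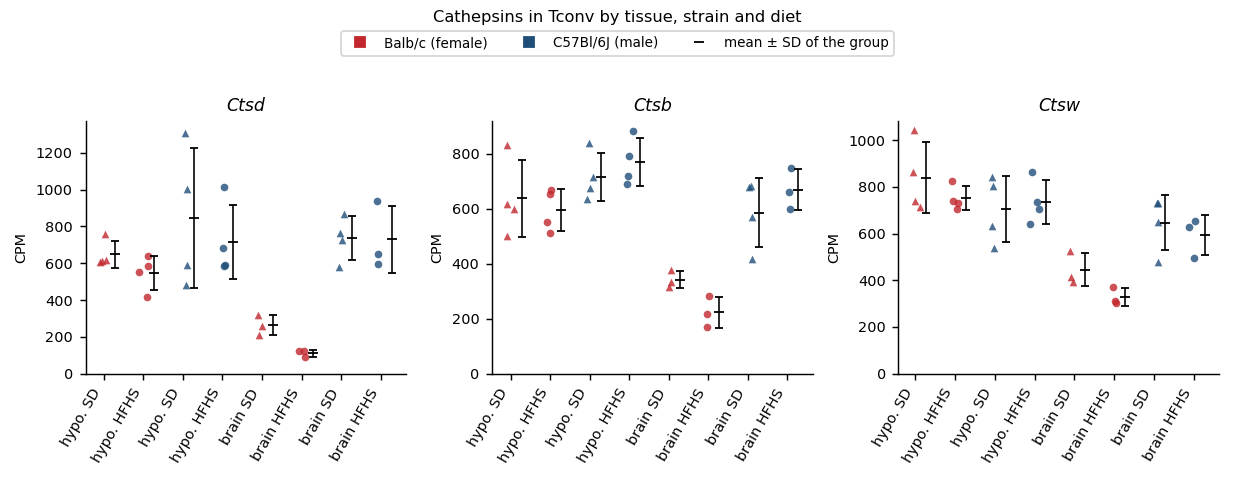
Cathepsin levels (CPM, linear axis from 0) in the 29 Tconv libraries by tissue, strain and diet, 1 point per library, with the mean and SD of each group. Ctsd, Ctsb and Ctsw of Balb/c rest-brain libraries lay below all hypothalamic Balb/c libraries, and those of C57Bl/6J mice overlapped between tissues.

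In the same contrast, 1 of 8 other cathepsins passed (Ctsa 0.80), and of the lysosomal membrane list Laptm5 (1.40) and Cln3 (1.38) were higher and Tmem192 (-0.91) lower, out of 13. M6pr (1.16), Neu1 (1.12) and Atp6v0a2 (1.55) were higher, and Cst3 (-1.45), Cstb (-0.93), Atp6v1f (-1.08) and Atp6v0e (-1.04) lower. T cell markers also differed in this contrast, with Lck (1.17) and Cd5 (1.49) higher and Cd3d (-1.01) and Cd3g (-0.68) lower, although their sum was 6508 to 7561 CPM in rest-brain and 7613 to 8758 CPM in hypothalamic Tconv of Balb/c mice. The part of a library-wide shift in the cathepsin values was not tested. In Tregs, 0 members passed in this contrast by edgeR, against 0.00794% of all genes (12% at an unadjusted p under 0.05), and DESeq2 called 2.

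Within rest-brain Tconv, the strains themselves differed for 3 members, against 23.5% of all genes (12.2% higher and 11.3% lower in Balb/c). All 3 were lower in Balb/c mice: Ctsd by a log2 difference of -1.78 (SE 0.18, adjusted p = 4.3e-06, edgeR), Ctsb of -0.88 (SE 0.15, adjusted p = 0.00036) and Ctsw of -0.42 (SE 0.13, adjusted p = 0.026). Of these, Ctsd and Ctsb did not overlap between the 6 Balb/c and 7 C57Bl/6J libraries (2 of 9 members, against 13.4% of 11218 genes). The Ctsw call was lost without any one of 5 libraries, namely C57Bl/6J HFHS 38_42 (-0.38, adjusted p = 0.069), SD 67_71 (-0.40, adjusted p = 0.0545) and SD 11_15 (-0.39, adjusted p = 0.0521), and Balb/c SD 37_41 (-0.41, adjusted p = 0.0556) and SD 32_36 (-0.39, adjusted p = 0.067). Lamp1 gave -0.59 (adjusted p = 0.11) and passed without Balb/c HFHS 16_20 (-0.81, adjusted p = 0.044) or without the filter on low counts (-0.63, adjusted p = 0.033). Cd63 was above 3 reads in 4 Balb/c libraries and 1 C57Bl/6J library, and its call was gained without that library, SD 01_05 (7.91, adjusted p = 0.0086), and by DESeq2 (4.90, adjusted p = 0.048). Of the 22 hydrolases, 6 were lower in Balb/c mice, and of the sorting list Gnptg (-1.21) and M6pr (-1.04) were lower. The 16 V-ATPase subunits went both ways, 5 higher and 4 lower, and the inhibitors Cst3 (1.97) and Cstb (1.02) were higher. Of 7 other cathepsins, Ctsa (-0.97) and Ctso (-0.55) were lower. Ctse, an aspartic cathepsin outside the members, was higher in Balb/c mice in rest-brain Tconv (3.54), hypothalamic Tconv (4.64) and rest-brain Tregs (4.51).

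Elsewhere the strains did not differ by edgeR for any member. In hypothalamic Tconv, 2.1% of all genes passed, 1.1% being lower in Balb/c mice (9.91% at an unadjusted p under 0.05), and DESeq2 and limma-voom called 2 members each, Ctsl and Ctss. Ctss was at -0.61 (adjusted p = 0.058), and passed without C57Bl/6J SD 11_15 (-0.67, adjusted p = 0.031) or Balb/c SD 06_10 (-0.72, adjusted p = 0.015). Ctsl passed without Balb/c SD 42_46 (-9.54, adjusted p = 0.0014), the only Balb/c library with more than 3 of its reads. In rest-brain Tregs, 0.299% of all genes passed, and Ctss was at -0.94 (adjusted p = 0.090), with 251 to 475 CPM in 6 Balb/c and 459 to 1172 CPM in 8 C57Bl/6J libraries, which overlapped slightly. It was called by DESeq2 (adjusted p = 0.0012) and by edgeR without the filter (adjusted p = 0.044). In hypothalamic Tregs, 0.0389% of all genes (3.78% at an unadjusted p under 0.05) and 0 members passed.

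The third comparison asked what the diet changed within each cell type and tissue. By edgeR, 0 members passed between HFHS and SD in any of the 4 fits, and so did 0.0% of all genes. At an unadjusted p under 0.05 there were 3.73% of genes in hypothalamic Tconv, 2.76% in hypothalamic Tregs, 4.83% in rest-brain Tconv and 7.29% in rest-brain Tregs. DESeq2 called 1 member in hypothalamic Tregs, Ctsl, and 0 in the other 3 fits. On simulated data, the edgeR fits recovered 45.5% of 4-fold changes in hypothalamic and 45% in rest-brain Tconv. They recovered 0.5% in hypothalamic and 8% in rest-brain Tregs, so that 0 calls say little there.

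Lamp1 gave the lowest unadjusted p of the members in hypothalamic Tconv. In Balb/c mice it was at 89.6, 87.2, 97.4 and 83.8 CPM under HFHS and at 206, 204, 206 and 175 CPM under SD. The diets did not overlap. In C57Bl/6J mice it was at 119, 151, 190 and 154 CPM under HFHS and 127, 133, 85.0 and 309 CPM under SD, which overlapped. Over both strains the log2 difference was -0.57 (SE 0.23, unadjusted p = 0.022, adjusted p = 1, edgeR), and the strains differed by -1.07 (unadjusted p = 0.013, adjusted p = 1), neither of which passed the correction (4.54% of all genes had an unadjusted p under 0.05 in the second of these contrasts). Among 10697 genes in these Balb/c libraries 3.56% did not overlap between diets, against 1 of 9 members.

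In rest-brain Tconv of Balb/c mice, with 3 libraries a diet, 4 of 9 members did not overlap between diets, namely Lamp2, Ctsb, Ctsd and Ctsw, all lower under HFHS. In these libraries 21.1% of 11220 genes did not overlap. Lamp2 was at 19.9, 28.8 and 61.95 CPM under HFHS and 73.1, 79.8 and 62.8 CPM under SD, a gap of less than 1 CPM between the nearest libraries. In C57Bl/6J mice Lamp2 was at 69.7, 107 and 76.4 CPM under HFHS and 103, 69.3, 67.2 and 97.6 CPM under SD, which overlapped. Over both strains, Ctsd differed by -0.51 (SE 0.17, unadjusted p = 0.0091, adjusted p = 0.90). The strain difference of the diet difference for Ctsd was -0.85 (adjusted p = 0.12 by edgeR, and 0.044 by DESeq2).

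In hypothalamic Tregs, Ctsl was at 0 in all 8 HFHS libraries and above 3 reads in 4 of 8 SD libraries. These were Balb/c 37_41 (163 CPM) and 32_36 (139 CPM) and C57Bl/6J 67_71 (102 CPM) and 11_15 (593 CPM), of which 32_36 and 11_15 are the libraries that stand apart. The unadjusted p was 0.00086 and the adjusted p 0.43 by edgeR (0.0050 without the filter on low counts), and no fold is given because a group was at 0. Lamp2 in the same cells was at 0 in all 4 Balb/c SD libraries and at 0, 345, 113 and 12.4 CPM in the Balb/c HFHS libraries. The Balb/c SD libraries held 2366 to 4515 genes above 3 reads and the Balb/c HFHS libraries 5078 to 6858. The part of detection in the Lamp2 zeros was not tested. In C57Bl/6J mice Lamp2 was at 6.75, 365, 0 and 63.5 CPM under HFHS and 61.3, 0, 578 and 14.4 CPM under SD. Ctss was at 687, 828, 430 and 229 CPM under HFHS and 217, 6666, 244 and 196 CPM under SD in Balb/c mice, and at 1026, 1442, 3328 and 176 CPM under HFHS and 600, 394, 366 and 616 CPM under SD in C57Bl/6J mice. The diets overlapped for Ctss in both strains.

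The pilot measured diet and leptin deficiency in hypothalamic cells with 1 library per group, so that no test of the conditions is possible. Values are counts with ratios of size-normalised reads and 95% intervals (Clopper-Pearson) that cover counting error only. A gene was taken as different at over 20 normalised reads in a library and a ratio above 2 or below 0.5. In CD44low+int T cells, 3 members were higher under HFHS, against 61.9% of all genes past the read filter that differed in either direction. The SD library held 241 counts of Foxp3 and the HFHS library 3, although both were sorted as CD25- cells per the methods, and the part of Foxp3+ cells in these ratios was not tested. Ctsw had 1409 counts under HFHS and 265 under SD, a ratio of 9.06 (7.94 to 10.4). Lamp2 had 407 and 92 counts (ratio 7.54, 5.997 to 9.56) and Ctsd 1536 and 972 counts (ratio 2.69, 2.48 to 2.92). Lamp1 (ratio 1.963), Ctss (1.06), Ctsb (0.93) and Ctsl (0.52) did not pass. By CPM in place of size factors, Ctsl also passed, as lower, and by size factors from this pair of libraries alone Lamp1 also passed, as higher (2.15).

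In pilot Tregs, 4 members differed, against 80.5% of all genes. Lamp2 had 644 counts under HFHS and 0 under SD, at least 179-fold higher against a floor of 3 counts per library, and Ctsl had 274 and 0 counts, at least 76.03-fold higher. Lamp1 had 0 counts under HFHS and 355 under SD, at least 142-fold lower. Lamp1 and Lamp2 thus took opposite sides in the same pair of libraries. Ctsd had 827 and 271 counts (ratio 2.54, 2.21 to 2.92). Ctss had 1485 and 1481 counts, a ratio of 0.83, and Ctsb and Ctsw did not pass. By CPM in place of size factors, 2 members were higher and 2 lower, since Ctsd no longer passed (ratio 1.86) and Ctsw did, as lower (0.41). In the second experiment, Balb/c Tregs of the hypothalamus likewise held Lamp2 at 0 in all SD libraries, but Ctsl was at 0 in the HFHS libraries there, opposite to the pilot. Detection was lower under SD in both experiments. The pilot SD Treg library had 1234423 counts on genes and the HFHS one 2029515, and the Balb/c SD libraries held fewer genes above 3 reads, as given above. The part of detection in the Lamp2 zeros was not tested.

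The ob/ob comparisons rested on thin libraries. The wild-type CD25- library had 220336 counts on genes and 8 of 9 members at 0, and Lamp1 alone was seen (38 counts, against 43 in ob/ob, 6.89-fold lower in ob/ob, 4.33 to 10.9). Against those zeros, Ctsw was at least 73.9-fold, Ctsd at least 47.8-fold, Ctsb at least 33.6-fold, Ctss at least 29.8-fold and Lamp2 at least 2.14-fold higher in ob/ob, and 6 members differed against 85.7% of all genes. This wild-type library, labelled as CD4+ T cells and CD25- only per the methods, held 66 counts of Foxp3 (299.5 CPM), against 48 counts (27.8 CPM) in ob/ob CD25- cells and 75.3 to 90.7 CPM in the pilot Tregs. The part of Foxp3+ cells in these ratios was not tested. In CD25++ cells, 8 members were lower in ob/ob, against 79.1% of all genes that differed and 54.3% that were lower, from an ob/ob library with 99925 counts. By CPM in place of size factors, 6 were lower and 1 higher. Ctss had 72 counts in ob/ob and 62117 in wild type, 55.2-fold lower. The library labelled as wild-type CD25hi Tregs held 99908 counts of P2ry12, a microglial receptor, and 0 of the T cell genes Cd3d and Cd4, so that it did not show its labelled cell type. Ctsw, the lymphocyte cathepsin, was the member that was not lower in ob/ob there (38 and 317 counts, ratio 1.87), and by CPM it was 6.40-fold higher (4.45 to 8.98). Cd63 and Tfeb did not pass by CPM.

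**Figure D5:**
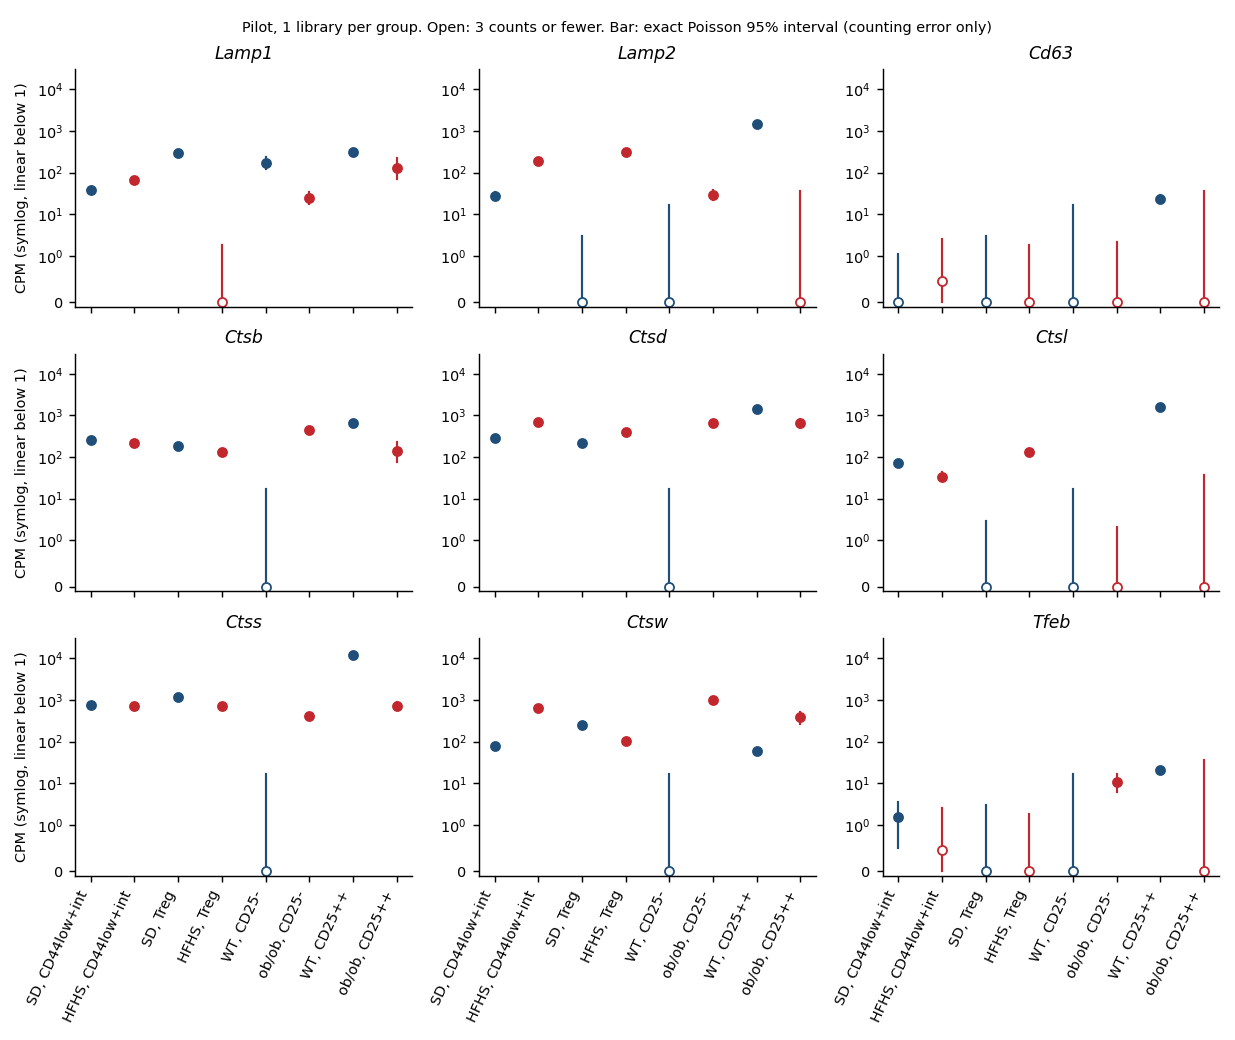
Level of each member (CPM, symmetric log axis) in the 8 pilot libraries, with exact Poisson 95% intervals for counting error; open symbols mark 3 counts or fewer. The wild-type CD25- library shows 1 member above 3 counts, and the wild-type CD25++ library the highest Ctss (11644 CPM).

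Over the means of the 16 groups of the second experiment, which share libraries, depth and the strain and tissue contrasts, the members did not follow one common pattern. The highest Pearson r of mean log2(CPM + 1) between members was 0.74 for Lamp1 and Tfeb, then 0.73 for Lamp2 and Ctsd and 0.62 for Ctsw and Tfeb. Ctss was inversely related to Tfeb (-0.58), Lamp1 (-0.54) and Ctsw (-0.53). Among 11952 genes with at least 1 CPM on average, the genes most like each member were Atr, Gpaa1 and Srsf6 for Lamp1 (r 0.90 to 0.89), Jmjd7, Kpna2 and Cnot11 for Lamp2 (0.96 to 0.95), and Opcml, Kazn and Kcnj6 for Cd63 (0.99 to 0.97). For the cathepsins they were Kcnn4, Gnai2 and Atp5b for Ctsb (0.96 to 0.92), Tmem189, Map7d1 and Noc2l for Ctsd (0.96 to 0.95), Bcdin3d, Ang and Sft2d1 for Ctsl (0.85 to 0.73), Gm10406, Rnaset2b and Gm3020 for Ctss (0.89 to 0.86) and Mapkapk5, Cxcr6 and Krt83 for Ctsw (0.90 to 0.87). For Tfeb they were Pcbp4, Tax1bp3 and Fxr2 (0.92 to 0.83). These are descriptions over 16 points, and a member with many groups at 0, such as Cd63, is ordered by few of them.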

How the data were processed

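RNA was measured in 59 libraries of the second experiment and 8 of the pilot. For the second, the authors deposited estimated counts and TPM per RefSeq transcript, made with nf-core/rnaseq and Salmon. For the pilot, the authors deposited counts per gene symbol, made with BWA and HTSeq on mm10. Salmon, BWA and HTSeq are listed in the submitters' processing notes. Of 35034 transcript names, 34850 (99.47%) were matched to a gene, and their estimated counts were summed per gene and rounded to whole numbers. CPM was then computed from the library totals. Rows of the pilot that name no gene were left out of its totals.

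A gene was kept when its counts exceeded 10 in a number of libraries no smaller than the smallest group, and kept genes were fitted with edgeR 4.0.16 (quasi-likelihood, TMM, Benjamini-Hochberg threshold 0.05) in R 4.3.3, after tests on simulated data. Of 200 simulated 4-fold changes, 62% were recovered for tissue in Tconv and 20.5% for Tregs against Tconv in the rest brain. Only 2% were recovered for Tregs against Tconv in the hypothalamus and 2.5% for tissue in Tregs. Tissue and cell type comparisons weighted the strain and diet groups equally. Alternatives were DESeq2 size factors in edgeR, no filter, filterByExpr, DESeq2 1.42.0, limma 3.58.1 voom with quality weights, a block on the pool label, and leaving out each library. Libraries with the same pool label did not deviate together (r from -0.052 to 0.064 over 9 to 15 pairs per comparison), so no pairing was used. The labels say nothing of what a pool number shares. In the pilot, size factors came from 786 genes. Pilot intervals cover counting error only.

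The members, gene lists and tests were chosen with earlier results of these data known, and the strain-by-tissue contrast and the exclusion of 2 libraries were chosen after seeing the data. Named genes were the members, up to 3 called genes per direction of each list, and the 3 genes most like each member. The hydrolase list also holds a gene whose values are not reported here. Tables and figures used Python 3.11.15, pandas 2.3.3, scipy 1.17.1 and matplotlib 3.10.9.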

Additional observations from a re-analysis of the deposited data

Results flagged for a closer look

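In groups of 4 libraries, 13 of 94 sets of a member and a group held a library whose gap to its nearest neighbour exceeded Dixon's 95% limit. That limit passes about 1 in 20 groups of normally distributed values, which CPM with zeros are not, and in 4 of the 13 the other libraries were all at 0. In hypothalamic Tconv of Balb/c mice, Lamp1 under SD was 175 CPM in 06_10 (others 204 to 206), Ctsd under SD was 759 CPM in 37_41 (others 609 to 616), Ctsl under SD was 3.31 CPM in 42_46 (others 0), and Ctss under HFHS was 133 CPM in 11_14 (others 211 to 219). In hypothalamic Tregs of Balb/c mice under SD, library 32_36 held Ctsd at 5499 CPM (others 0.0591 to 66.3) and Ctss at 6666 CPM (others 196 to 244). Under HFHS, Ctsd was 2109 CPM in 11_14 (others 83.8 to 361) and Tfeb 45.9 CPM in 15_21 (others 0). In hypothalamic Tregs of C57Bl/6J mice under SD, library 11_15 held Lamp2 at 578 CPM (others 0 to 61.3) and Cd63 at 362 CPM (others at most 0.237), and library 67_71 held Tfeb at 5.58 CPM (others at most 0.119). In the rest brain, Cd63 was 2.23 CPM in C57Bl/6J SD Tconv 01_05 and 2.10 CPM in Balb/c HFHS Tregs 15_21, with 0 in the other libraries of each group.

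The tissue difference of Tconv differed between Balb/c and C57Bl/6J mice for Ctsd (1.46 on the log2 scale), Ctsb (0.65), Ctsw (0.58), Ctss (-0.80) and Ctsl (-6.79) by the edgeR test of that difference. Strain, sex and the pools of each strain cannot be told apart in it.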

How the results depend on the processing

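Of 20 called member differences, 619 of 655 repeats under another setting kept direction and call, 36 lost the call and 0 reversed; 25 of the 36 were among the 535 repeats that left out a library. Leaving out 1 library gave 2 to 4 called members for Tregs against Tconv in the hypothalamus, 3 to 4 in the rest brain, 5 to 7 for tissue in Tconv, 0 to 1 for tissue in Tregs, 0 to 1 and 2 to 4 for strain in hypothalamic and rest-brain Tconv, and 3 to 5 for strain by tissue in Tconv. It was not run for cell type by tissue. With DESeq2, members called were 5 for Tregs against Tconv in the hypothalamus, 1 for tissue in Tregs, 1 for cell type by tissue, 2 for strain in hypothalamic Tconv, 1 for strain in rest-brain Tregs, 1 for diet in hypothalamic Tregs, 1 for strain by diet in each of hypothalamic Tregs, rest-brain Tconv and rest-brain Tregs, and 2 for strain by tissue in Tregs. DESeq2 also gained Cd63 for strain in rest-brain Tconv (4.90) and Ctsl for tissue in Tconv (-2.50). With limma-voom they were 5, 1, 4 and 2 for the first 4 of these. Without a filter, 1 each was called for tissue, for strain in the rest brain, for diet in the hypothalamus and for strain by tissue in Tregs. Without the 2 libraries that stand apart, 1 was called for tissue in Tregs and 1 for cell type by tissue.

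The block on the pool label gave 1 member for cell type by tissue and 0 for strain by tissue in Tconv (main 5), where it left 33 of 1422 genes called overall. Over all genes, the block gave 510 calls in place of 2908 for tissue in Tconv, 2 in place of 1438 for tissue in Tregs, 1767 in place of 2774 and 5543 in place of 3769 for Tregs against Tconv in rest brain and hypothalamus. Under the block, Lamp2 in hypothalamic Tregs (-4.01, adjusted p = 0.185), Ctsb in rest-brain Tregs (0.61, adjusted p = 0.091), and Tfeb (1.92, adjusted p = 0.112) and Cd63 (-4.31, adjusted p = 0.305) between tissues in Tconv lost their calls. DESeq2 gave the Cd63 difference an adjusted p of 0.097, and DESeq2 size factors in edgeR gave Ctsw between strains in rest-brain Tconv 0.0519. In the pilot, asking for more than 20 reads in both libraries left 1 of 4 members in Tregs, 1 of 6 in CD25- and 4 of 8 in CD25++ cells. Causes were not tested. Members at 3 reads or fewer in whole groups (Cd63, Ctsl, Tfeb and Lamp2) have no usable fold, and hypothalamic Tregs, with a median of 4749 genes above 3 reads, limit what a level of 0 shows.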
